A study of Mus musculus with 2 samples.

Results

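The 8 genes described here make, bind, cut or sense hyaluronan in the newborn mouse heart. They were taken by symbol from the 31053 genes in the count tables. Has1, Has2 and Has3 encode the hyaluronan synthases, Vcan and Acan encode the hyaluronan-binding proteoglycans versican and aggrecan, Hapln1 encodes a link protein, Hyal2 encodes a hyaluronidase and Cd44 encodes a hyaluronan receptor. The rule that picked them uses names and no measured value, but the members were chosen with earlier results of these data known.

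Hyaluronan is a long, unsulphated sugar polymer that synthases in the plasma membrane extrude directly into the extracellular space. Versican and aggrecan bind it through a globular domain at their amino-terminal end, and link proteins lock that binding, so that large hydrated aggregates form. In the heart these aggregates are best known from the cardiac jelly of the embryo, where hyaluronan and versican are needed for the endocardial cushions that become the valves, and from the walls of arteries.

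Live cells from intact hearts were profiled by droplet single cell RNA-seq at postnatal day 1 (P1) and postnatal day 7 (P7). Each age was 1 library made from 3 pooled hearts of 1 litter. The hearts were digested with collagenase II at 500 units/ml for 20 min at P1 and for 45 min at P7, treated with a red blood cell lysis buffer and sorted for cells that excluded the viability dye 7-AAD. The labels give no strain, genotype or treatment, and the study's methods call the mice intact. With 1 library per age there was no replicate, so no test between the ages was possible, and every interval below is a 95% interval that covers counting error only. UMIs (unique molecular identifiers, each standing for 1 captured transcript) are not spread evenly over cells, so these intervals are too narrow wherever a few cells hold many UMIs.

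Levels are given as CPM, a gene's UMIs as a share of all UMIs summed over a set of cells, scaled to 1000000. Cells were assigned to classes by marker genes: Cdh5 for endothelium, Pdgfra for fibroblasts, Fmod with Scx for valve-type cells, Myh11 for smooth muscle, Csf1r for macrophages and Upk3b for epicardium. The classes held 1636 and 3248 endothelial cells at P1 and P7, 977 and 1993 fibroblasts, 224 and 113 valve-type cells, 167 and 411 smooth muscle cells, 200 and 199 macrophages, and 43 and 21 epicardial cells. A further 1664 and 2300 cells passed no gate, and 80 and 226 cells that passed more than 1 gate were left out of the classes.

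The kept cells numbered 4991 at P1 and 8511 at P7, with medians of 10875 and 10104 UMIs. Xist, expressed from the inactive X chromosome of females, had 57336 UMIs at P1 and 12 at P7, and 4 Y-linked genes had 2 and 18039, so age, sex and digestion time cannot be told apart. Genes of lung tissue were at 246 CPM in all at P1 and 3.13 CPM at P7. They were higher at P1 in each of the 6 classes. In valve-type cells they stood at 62.1 CPM at P1 (6 of 7 detected) and 2.69 CPM at P7 (2 of 7), so valve-type comparisons between the ages include this difference. The marker list of each class stood above the other cell type lists in endothelium, fibroblasts, smooth muscle and macrophages. Each list includes the gate gene or genes of its class, so its level in that class is partly set by the gating. In valve-type cells and epicardium the fibroblast list was the highest, at 14121 and 24162 CPM in valve-type cells and 10100 and 8721 CPM in epicardium, while the valve-type list (1133 and 2222 CPM) and the epicardial list (5041 and 2895 CPM) each stood higher there than in any other class. In epicardium at P1 nearly all of the fibroblast list was Col1a1 (4375 CPM) and Dcn (5667 CPM), and Pdgfra was at 9.29 CPM. The libraries shared 13 barcodes among the cells kept. A lymphocyte gate, meant to show the background of matrix transcripts in cells that should not make them, went against its label at P1, because 89 of its 112 cells carried at least 10 UMIs of S100a8 and S100a9, which mark neutrophils and monocytes. Values of that gate are therefore also given without such cells where they matter.

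Over all kept cells, 3 of the 8 genes differed at least 2-fold between the ages with an interval clear of no difference. Hapln1 and Has1 were higher at P1 and Has3 was higher at P7. Of the 16552 genes with at least 20 UMIs, 12.4% differed as much, 8.54% being higher at P1 and 3.83% higher at P7. Log2 ratios, here always P1 over P7, had a median of 0.15 for the 8 genes and 0.0041 for all genes tested. Hapln1 stood at 11.8 CPM at P1 (698 UMIs) and 4.05 CPM at P7 (395 UMIs), for a log2 ratio of 1.54 (1.36 to 1.73). Has1 stood at 3.03 CPM (179 UMIs) and 1.35 CPM (132 UMIs), for a log2 ratio of 1.16 (0.83 to 1.498). At P1, 1 cell in no class held 25 of these 179 UMIs. Epicardium held another 74, of which 77.0% lay in 5 cells, so the Has1 ratio leans on few cells. Has3 stood at 0.610 CPM (36 UMIs) and 1.29 CPM (126 UMIs), for a log2 ratio of -1.07 (-1.66 to -0.54). Without cells holding a UMI of a lung gene the Has1 ratio was 0.63 (0.24 to 1.01), under 2-fold, and in cells thinned to 2000 UMIs the Has3 ratio was -0.21 (-1.43 to 0.85), which spans no difference. The levels of the other 5 genes at P1 and P7 were less than 2-fold apart. Their log2 ratios were -0.20 for Has2, 0.14 for Vcan, -0.42 for Acan, 0.36 for Hyal2 and 0.16 for Cd44. These sums move with the makeup of the libraries as well as with the level per cell: valve-type cells made up 4.49% of the P1 library and 1.33% of the P7 library.

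Acan, Hyal2 and Has3 were each concentrated in 1 class, while Cd44 and Hapln1 were more spread. At P7 the largest share in any class was 29.9% of the Cd44 UMIs and 31.4% of the Hapln1 UMIs, both in endothelium. Acan UMIs were mostly in smooth muscle, with 370 of 508 at P1 and 909 of 1123 at P7. Hyal2 and Has3 UMIs were mostly in endothelium, which held 68.7% and 64.5% of the Hyal2 UMIs and 69.4% and 84.9% of the Has3 UMIs. Fibroblasts and valve-type cells held most of the Has2 and Vcan UMIs in any class. The synthases had their highest levels in different classes at P1: Has1 in epicardium, Has2 in valve-type cells and Has3 in endothelium. By UMIs, Has1 and Has2 shared a class at P7, when fibroblasts held 81 of the 132 Has1 UMIs and 897 of the 1304 Has2 UMIs.

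**Figure D1:**
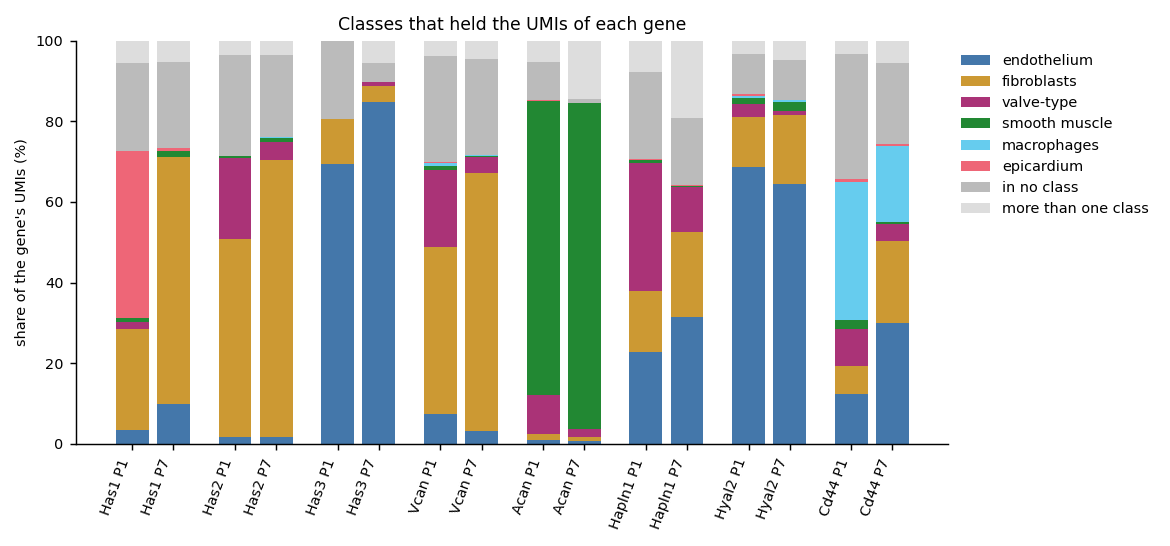
Share of each gene's UMIs (y axis, %) that lay in each gated class, in cells of no class and in cells of more than 1 class, with 1 bar per gene and library. Smooth muscle holds most of the Acan bar at both ages, endothelium most of the Has3 and Hyal2 bars, and epicardium 41.3% of the Has1 bar at P1 against 0.758% at P7.

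The 250 bases before the annotated start were read for the members that RefSeq's promoter table lists (GRCm38.p6), which are 6 of the 8, without Has2 and Has3. They are shown for Has1, Hapln1, Vcan and Cd44, which were at least 2-fold higher at P1 in some class, and for Acan, most of whose UMIs lay in 1 class. Capitals mark matches to 4 motifs searched on both strands: the hypoxia response core ACGTG, the AP-1 site TGACTCA, the GC box GGGCGG and the TATA box TATAAA.
Has1, chr17:17855189-17855438, minus strand: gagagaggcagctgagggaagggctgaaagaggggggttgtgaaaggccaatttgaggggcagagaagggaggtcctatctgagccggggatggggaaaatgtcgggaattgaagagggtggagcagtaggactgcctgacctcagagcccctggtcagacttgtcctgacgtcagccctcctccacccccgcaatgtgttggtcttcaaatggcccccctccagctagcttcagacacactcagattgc
Vcan, chr13:89742513-89742762, minus strand: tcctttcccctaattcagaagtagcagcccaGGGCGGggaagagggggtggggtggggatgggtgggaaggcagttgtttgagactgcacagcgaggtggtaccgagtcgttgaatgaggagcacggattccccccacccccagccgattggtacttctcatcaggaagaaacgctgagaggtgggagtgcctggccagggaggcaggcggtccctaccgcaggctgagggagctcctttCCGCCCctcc
Acan, chr7:79052976-79053225, plus strand: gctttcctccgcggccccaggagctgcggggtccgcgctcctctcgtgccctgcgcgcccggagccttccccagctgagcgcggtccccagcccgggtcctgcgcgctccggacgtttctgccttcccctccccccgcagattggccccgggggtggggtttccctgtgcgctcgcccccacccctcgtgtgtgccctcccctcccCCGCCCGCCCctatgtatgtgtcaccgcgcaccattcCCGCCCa
Hapln1, chr13:89540386-89540635, plus strand: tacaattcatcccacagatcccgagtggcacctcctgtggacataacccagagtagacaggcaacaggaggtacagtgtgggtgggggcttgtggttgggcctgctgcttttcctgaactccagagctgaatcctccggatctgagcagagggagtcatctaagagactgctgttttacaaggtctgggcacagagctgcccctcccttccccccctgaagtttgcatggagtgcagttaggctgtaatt
Cd44, chr2:102901666-102901915, minus strand: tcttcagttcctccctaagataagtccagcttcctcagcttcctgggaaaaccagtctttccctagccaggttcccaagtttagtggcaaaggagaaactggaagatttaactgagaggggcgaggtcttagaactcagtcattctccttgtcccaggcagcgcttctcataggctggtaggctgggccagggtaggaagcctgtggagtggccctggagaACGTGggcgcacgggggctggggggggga

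The Hapln1 window lies inside the longer gene model of the positions given next. The windows differed in base composition. Acan had 26 CG dinucleotides and 74.4% GC, Vcan had 10 and 62.4%, Has1 had 4 and 58.0%, Cd44 had 5 and 56.4%, and Hapln1 had 2 and 54.4%. The GC box matched 3 times in Acan, with 2 of the matches overlapping, and 2 times in Vcan, and did not match in Has1, Hapln1 or Cd44. It occurs in 32.7% of the 32851 promoters of the table. The hypoxia response core, present in 16.6% of all promoters, matched only in the Cd44 window among the 6 members. The AP-1 site (4.46% of promoters) and the TATA box (12.4%) matched in none of the 6.

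In the genome, 2 of the 8 genes are neighbours. On GRCm38, Hapln1 lies at chr13:89539796-89611652 on the plus strand and Vcan at chr13:89655312-89742509 on the minus strand, with 43.659 kb and no coding gene between their 3′ ends. Acan (chr7:79053483-79115099, plus strand) ends 2 bases from the end of another link protein gene, Hapln3, on the opposite strand. The other members each lie on a chromosome that holds no other member. Has1 is at chr17:17843323-17855205 (minus), Has2 at chr15:56665627-56694539 (minus) and Has3 at chr8:106870242-106884566 (plus). Hyal2 is at chr9:107567945-107572779 (plus) and Cd44 at chr2:102811141-102901665 (minus). Whether other hyaluronan genes outside the 8 lie beside these members was not looked up. Has3, Vcan and Hyal2 each overlap a gene on the other strand that the count tables also hold (Chtf8, Gm4117 and Gm9917). Whether the counting used strand is not stated in the sources used here, so reads from such overlaps are uncertain for these genes.

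Among the synthases, Has1 had the largest ratio between the ages in a class. In epicardial cells, 74 Has1 UMIs were found in 15 of 43 cells at P1 and 1 UMI in 1 of 21 cells at P7. The level was 115 CPM (90.0 to 144) at P1 and 3.30 CPM (0.084 to 18.4) at P7, for a log2 ratio of 4.54 (2.59 to 10.44). No other class exceeded 2.68 CPM at either age. The UMIs were concentrated: 5 cells held 77.0% of those at P1, and without these 5 cells the remaining 38 stood at 30.2 CPM. In cells thinned to 2000 UMIs the log2 ratio was 1.47 (-0.93 to 7.44), which spans no difference. Genes of lung tissue stood at 158 CPM in epicardium at P1 (4 of 7 detected) and 46.3 CPM at P7 (2 of 7), higher than in the other 5 classes at each age. Without cells holding a UMI of a lung gene the epicardial log2 ratio was 4.42 (2.42 to 10.33). Cells of lung origin that hold Upk3b but no UMI of these 7 genes would remain in the class, and their part was not tested. In fibroblasts Has1 was at 2.68 CPM at P1 (45 UMIs) and 2.30 CPM at P7 (81 UMIs), for a log2 ratio of 0.22 (-0.34 to 0.76) that spans no difference. Within fibroblasts, cells with a UMI of Pi16, a marker of adventitial fibroblasts, had 5.99 CPM at P1 and 2.76 CPM at P7. A Pi16 UMI was found in 192 of 977 fibroblasts at P1 and 1363 of 1993 at P7, so this gate took unlike shares of the class. The finer gates, here and below, are not exclusive: a cell may hold UMIs of several of these markers. Has1 was at 0 in macrophages of both ages, which allows up to 1.22 CPM at P1 and 1.35 CPM at P7.

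Has2, the synthase required for cushion formation in the embryo, was a gene of valve-type cells and fibroblasts at both ages. Valve-type cells stood at 41.3 CPM (34.7 to 48.7) at P1 and 31.8 CPM (24.2 to 41.0) at P7, and the log2 ratio of 0.37 (-0.07 to 0.84) spans no difference. Fibroblasts stood at 20.0 CPM (17.9 to 22.2) at P1 and 25.5 CPM (23.9 to 27.2) at P7, for a log2 ratio of -0.35 (-0.54 to -0.17), which is below the 2-fold limit. At P1 the valve-type level was thus above the fibroblast level, while at P7 the intervals of these classes overlapped. A Has2 UMI was seen in 21.0% of fibroblasts at P1 and 25.3% at P7, with median depths of 16029 and 17098 UMIs per cell, against 4.46% and 1.01% of the lymphocyte gate, whose median depths were 3992.5 and 5183 UMIs. In cells thinned to 2000 UMIs the fibroblast shares were 3.63% and 4.63%, against 1.82% (0.22 to 6.41) and 0% (0 to 1.36) of the lymphocyte gate. At P1 the interval of the gate thus held the fibroblast share. The Has2 level of the gate at P1, 10.6 CPM (3.87 to 23.0), also had an interval that held the fibroblast level. All 5 cells of the P1 lymphocyte gate with a Has2 UMI were cells with S100a8 and S100a9. Has2 had 0 UMIs in epicardium at both ages, which allows up to 4.64 CPM at P1 and 9.91 CPM at P7, so at P1 the epicardial cells held Has1 and no detected Has2.

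Within fibroblasts the difference in Has2 was not of 1 sign. Cells with a Pi16 UMI, 192 at P1 and 1363 at P7, stood at 20.2 and 30.1 CPM. Cells with a UMI of Col26a1, 702 at P1 and 1295 at P7, stood at 15.8 and 23.2 CPM, and could hold a Pi16 UMI as well. Cells with a UMI of none of Pi16, Gdf10 and Col26a1, 168 at P1 and 140 at P7, stood at 41.2 and 13.5 CPM, for a log2 ratio of 1.58 (0.93 to 2.34). The same unmarked fibroblasts were also the fibroblasts highest in Vcan (588 CPM) and Hapln1 (28.1 CPM) at P1. Valve-type cells at P1 stood at 41.3 CPM for Has2, 807 CPM for Vcan and 65.9 CPM for Hapln1. A valve-type cell without a UMI of Fmod or of Scx would be gated as a fibroblast if it held Pdgfra. The unmarked fibroblasts had a median of 12061 UMIs at P1, and the part of such cells was not tested.

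Has3 was sparse and mainly endothelial. Endothelium had 25 Has3 UMIs at P1 and 107 at P7, or 1.28 CPM (0.827 to 1.89) and 3.67 CPM (3.01 to 4.44), for a log2 ratio of -1.50 (-2.21 to -0.88). The UMIs were scattered, with at most 2 in any cell, over 24 of the 1636 endothelial cells at P1 and 99 of 3248 at P7. Cells with a UMI of Car4, a capillary marker, stood at 1.11 CPM at P1 and 4.43 CPM at P7. The P7 level was not particular to them. It was 7.66 CPM in cells with the lymphatic marker Prox1, 5.95 CPM with the arterial marker Gja5 and 3.71 CPM with the endocardial marker Npr3. These 3 gates held 7, 10 and 5 Has3 UMIs at P7 and 1, 0 and 5 at P1. Endothelial cells with none of Car4, Prox1, Gja5 and Npr3 stood at 1.65 and 2.61 CPM. Outside endothelium no class had more than 5 Has3 UMIs. Chtf8, whose gene overlaps Has3 on the other strand, stood at 47.4 and 47.3 CPM in fibroblasts. In endothelium it stood at 37.1 CPM (34.4 to 39.9) at P1 and 45.9 CPM (43.5 to 48.45) at P7, higher at P7 as Has3 was. Its part in the Has3 counts was not tested.

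**Figure D2:**
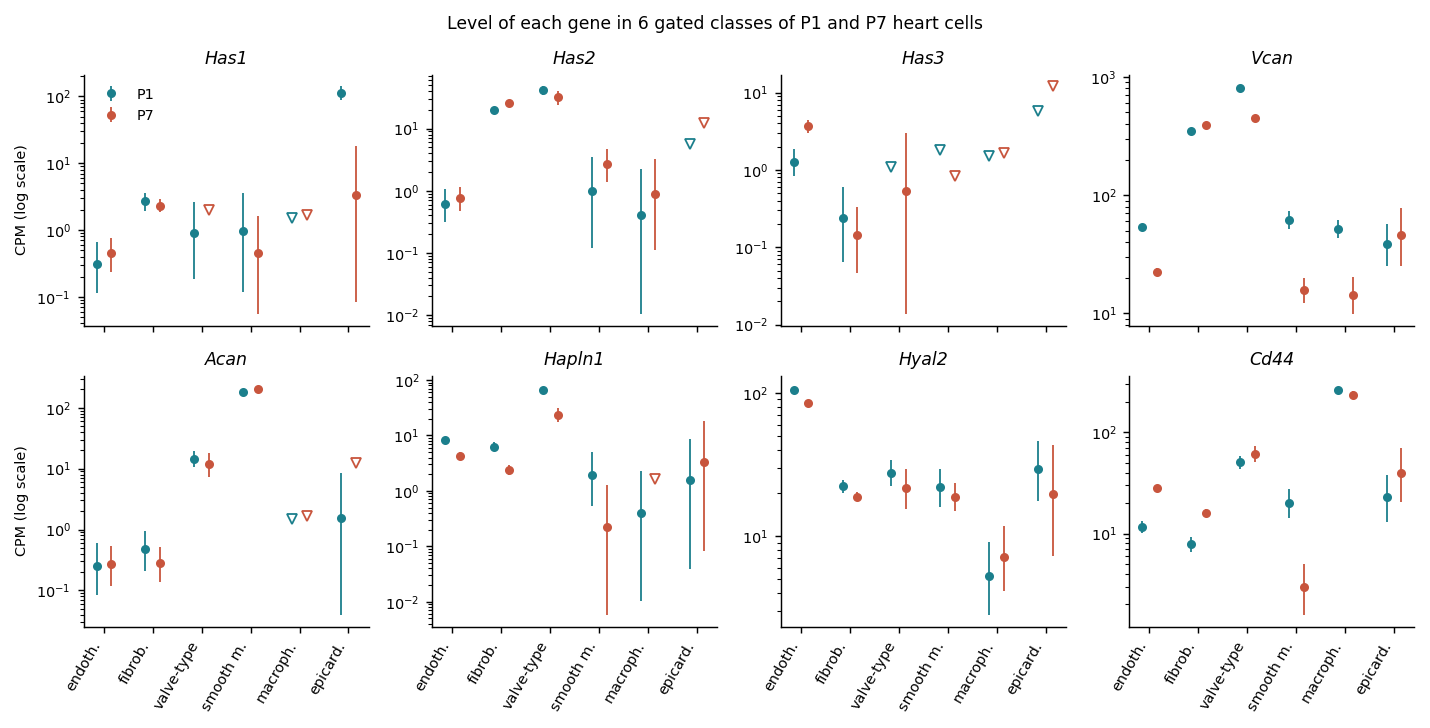
CPM of each gene (y axis, log scale) in the 6 classes at P1 and P7, with 95% Poisson intervals; open triangles mark classes with 0 UMIs and stand at the upper end of the interval. Has1 in epicardium is at 115 CPM at P1 and 3.30 CPM at P7, while Acan in smooth muscle is at 181 and 206 CPM.

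Vcan, the versican gene, was found in nearly all fibroblasts and valve-type cells. It had a UMI in 888 of 977 fibroblasts at P1 and 1920 of 1993 at P7, and in 212 of 224 and 101 of 113 valve-type cells. The lymphocyte gate had a Vcan UMI in 8.93% and 4.38% of cells. Valve-type cells stood highest at both ages, at 807 CPM (777 to 838) at P1 and 445 CPM (415 to 476) at P7, for a log2 ratio of 0.86 (0.75 to 0.97). Fibroblasts followed at 349.8 CPM (341 to 359) and 388 CPM (381 to 394), for a log2 ratio of -0.15 (-0.19 to -0.10). Valve-type cells were thus higher at P1 and fibroblasts slightly higher at P7, but with cells of several gates kept the fibroblast ratio was 0.055 (0.015 to 0.095), on the other side of 0.

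In 3 other classes Vcan was more than 2-fold higher at P1. Smooth muscle stood at 61.7 CPM (126 UMIs in 42 of 167 cells) at P1 and 15.6 CPM (69 UMIs in 25 of 411 cells) at P7, for a log2 ratio of 1.98 (1.55 to 2.43). Macrophages stood at 52.0 CPM (128 UMIs) and 14.4 CPM (32 UMIs), for a log2 ratio of 1.83 (1.28 to 2.46). Endothelium stood at 54.1 CPM (1059 UMIs) and 22.4 CPM (653 UMIs), for a log2 ratio of 1.27 (1.13 to 1.41). The lymphocyte gate stood at 22.9 CPM (12.2 to 39.1) at P1 and 18.9 CPM (13.4 to 26.0) at P7, so the smooth muscle, macrophage and endothelial levels lay within the interval of that gate at P7 and above it at P1. Without the S100a8 and S100a9 cells the gate stood at 24.6 CPM (5.07 to 71.8) in 23 cells at P1, an interval that holds all 3 levels, and at 15.4 CPM (10.2 to 22.2) at P7. At P7, 13 of the 297 cells of the full gate held its 38 Vcan UMIs, with 9 in 1 cell. Whether cells of the gate make Vcan themselves was not tested, so its level may not be background. The fibroblast marker list stood at 1144 CPM at P1 and 831 CPM at P7 in smooth muscle, at 202 and 721 CPM in macrophages and at 417 and 648 CPM in endothelium. The list was higher at P7 in macrophages and endothelium, where Vcan was higher at P1, and higher at P1 in smooth muscle, as Vcan was. In fibroblasts themselves the list stood at 14851 CPM at P1 and 22755 CPM at P7. The part of fibroblast transcripts in the Vcan differences of these 3 classes was not tested. Gm4117, which overlaps Vcan on the other strand, stood at 15.2 and 4.53 CPM in smooth muscle and 7.46 and 2.37 CPM in endothelium, and its part was not tested either. With cells of several gates kept, the ratios were 1.52 in smooth muscle, 1.00 in macrophages and 0.70 in endothelium, the last under 2-fold, and thinning gave 0.92 (-0.29 to 2.30) in macrophages. Vcan was not distinguishable between the ages in epicardium, with 25 UMIs at P1 and 14 at P7 and a log2 ratio of -0.28 (-1.26 to 0.80).

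The endothelial difference in Vcan was not seen in the endothelial cells that hold Npr3. Npr3 marks the endocardium, the endothelial lining of the heart chambers, and a UMI of Npr3 was found in 19.3% of endothelial cells at P1 and 3.02% at P7. Vcan in these cells stood at 146 CPM (135 to 158) in 315 cells at P1 and 186 CPM (164 to 211) in 98 cells at P7, for a log2 ratio of -0.35 (-0.56 to -0.13). Without cells that also held a Prox1 UMI it was -0.22 (-0.45 to 0.02), which spans no difference. In endothelium without an Npr3 UMI it stood at 28.3 CPM at P1 and 14.5 CPM at P7, for a log2 ratio of 0.97 (0.77 to 1.17). At P7, 1 cell held 87 of the 402 Vcan UMIs in the latter cells. The share of Npr3 cells was thus lower at P7, as was Vcan in the class as a whole. Of the 315 and 98 Npr3 cells, 244 and 96 held no UMI of a lung gene, so the P1 share includes cells with lung genes. In the cells without them the Vcan log2 ratio was -0.34 (-0.56 to -0.11). Cells with a UMI of Gja5, an arterial connexin gene, had 202 CPM at P1 in 60 cells and 13.7 CPM at P7 in 174 cells, and without the Npr3 cells 84.1 CPM in 41 cells and 14.9 CPM in 164 cells. At P1, 1 cell held 49 of the 159 Vcan UMIs in the 60 Gja5 cells. In the 41 cells without Npr3, 1 cell held 22 of the 45. Car4 cells had 14.1 and 15.8 CPM, with a log2 ratio of -0.17 (-0.50 to 0.15), and 1 cell at each age held 37.0% and 40.7% of these UMIs. Endothelial cells with a UMI of none of Npr3, Prox1, Car4 and Gja5 numbered 512 at P1 and 1468 at P7. They stood at 41.6 CPM (252 UMIs) and 12.3 CPM (156 UMIs), for a log2 ratio of 1.75 (1.46 to 2.05).

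**Figure D3:**
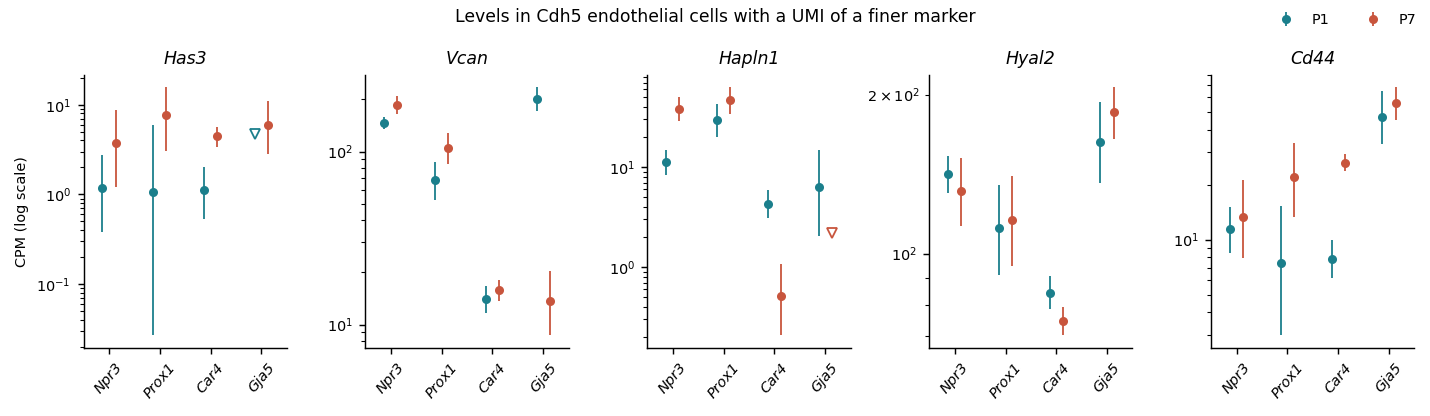
CPM (y axis, log scale) of 5 of the genes in Cdh5 endothelial cells with at least 1 UMI of Npr3, Prox1, Car4 or Gja5 at P1 and P7, with 95% Poisson intervals and open triangles for 0 UMIs. Vcan is high in Npr3 cells at both ages (146 and 186 CPM) and in Gja5 cells at P1 alone. Cd44 is higher at P7 in Car4 cells (7.86 and 26.4 CPM) and in Prox1 cells (7.44 and 21.9 CPM).

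Acan, which encodes the cartilage proteoglycan aggrecan, was a smooth muscle gene in these hearts. Smooth muscle stood at 181 CPM (163 to 201) at P1 and 206 CPM (193 to 220) at P7, for a log2 ratio of -0.18 (-0.36 to -0.01). Acan was detected in 51.5% of the P1 smooth muscle cells (86 of 167) and 53.8% of those at P7 (221 of 411), with median depths of 11881 and 10029 UMIs, against 0 of 112 and 1 of 297 cells of the lymphocyte gate. Valve-type cells came next, at 14.5 CPM (10.8 to 19.2) at P1 and 11.8 CPM (7.42 to 17.9) at P7, with the UMIs in 16 of 224 and 6 of 113 cells. Endothelium and fibroblasts stood between 0.255 and 0.476 CPM, and Acan was at 0 in macrophages of both ages. Cells of no class stood at 3.93 CPM at P1 (48 UMIs) and 0.570 CPM at P7 (11 UMIs), for a log2 ratio of 2.74 (1.82 to 3.88), the other sign from smooth muscle. The neighbouring link protein gene Hapln3 was in smooth muscle as well, at 9.80 CPM at P1 (20 UMIs) and 20.8 CPM at P7 (92 UMIs), for a log2 ratio of -1.06 (-1.86 to -0.38), and in endothelium at 7.66 and 6.42 CPM. Of the other lectican genes, the brain genes Bcan and Ncan had 4 and 3 UMIs at P1 and 17 and 2 UMIs at P7 in all cells.

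Hapln1, which encodes the link protein that stabilises versican and aggrecan on hyaluronan, was higher at P1 in every class that gave enough UMIs. Valve-type cells stood at 65.9 CPM (57.5 to 75.2) at P1 and 23.7 CPM (17.2 to 31.8) at P7, for a log2 ratio of 1.46 (1.00 to 1.98). Fibroblasts stood at 6.30 CPM (5.16 to 7.62) and 2.39 CPM (1.91 to 2.96), for a log2 ratio of 1.40 (0.97 to 1.83). Endothelium stood at 8.12 CPM (6.91 to 9.49) and 4.26 CPM (3.54 to 5.07), for a log2 ratio of 0.93 (0.58 to 1.28), which is just under 2-fold, and 2.06 (1.06 to 3.22) in cells thinned to 2000 UMIs. A UMI was seen in 102 of 224 valve-type cells (45.5%) at P1 and 28 of 113 (24.8%) at P7, and in cells thinned to 2000 UMIs the shares were 13.6% and 3.57%. The lymphocyte gate held 0 Hapln1 UMIs in 112 and 297 cells, which allows shares of up to 2.68% and 1.01% of cells with a UMI at the median depths of 3992.5 and 5183 UMIs of that gate. Valve-type cells were deeper, with medians of 13895 and 16256 UMIs, and most of the gate's cells at P1 were those with S100a8 and S100a9.

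The finer gates gave opposite signs for Hapln1 in endothelium. Cells with an Npr3 UMI had 48 UMIs at P1 and 52 at P7, or 11.2 and 38.5 CPM, for a log2 ratio of -1.78 (-2.38 to -1.19). These UMIs lay in 10 of 315 and 7 of 98 cells, and 1 cell at each age held 47.9% and 42.3% of them. Without an Npr3 UMI endothelium stood at 7.26 CPM at P1 and 2.59 CPM at P7, for a log2 ratio of 1.48 (1.05 to 1.94), with 1 cell holding 29 of the 72 UMIs at P7. Cells with a UMI of Prox1, the lymphatic regulator, were high at both ages, at 29.8 CPM (19.8 to 43.0) and 47.0 CPM (34.0 to 63.4), but 1 cell at each age held 13 of their 28 UMIs and 22 of their 43. Among fibroblasts, the unmarked cells stood at 28.1 CPM at P1 and 4.71 CPM at P7, for a log2 ratio of 2.50 (1.504 to 3.85), and Pi16 cells at 5.99 and 1.36 CPM, whereas Col26a1 cells stood at 1.94 and 2.58 CPM, with an interval that spans no difference (-1.14 to 0.28), and Gdf10 cells went the other way, at 4.21 and 8.71 CPM with a log2 ratio of -1.03 (-2.10 to -0.06).

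Hyal2, a hyaluronidase tethered to the cell surface that cuts long chains, led in endothelium at both ages. Endothelium stood at 105 CPM (101 to 110) at P1 and 85.5 CPM (82.2 to 88.9) at P7, for a log2 ratio of 0.30 (0.21 to 0.38). A UMI was seen in 58.6% of endothelial cells at P1 and 46.0% at P7, with median depths of 10814 and 7907.5 UMIs, against 0.893% and 2.69% of the lymphocyte gate. In cells thinned to 2000 UMIs the endothelial shares were 18.3% and 15.9%. Within endothelium the Gja5 cells stood highest, at 163 and 185 CPM, with an interval at P1 that overlaps that of Npr3 cells, and the Car4 cells lowest, at 84.3 and 74.6 CPM. Fibroblasts, valve-type cells, smooth muscle and epicardium lay between 18.8 and 29.4 CPM at both ages with overlapping intervals. Outside the lymphocyte gate, macrophages were lowest, at 5.28 CPM (2.81 to 9.03) and 7.20 CPM (4.12 to 11.7), although the latter interval overlaps that of epicardium. No class reached a 2-fold difference between the ages for Hyal2. Gm9917, which overlaps Hyal2 on the other strand, was also an endothelial gene, at 13.5 and 12.3 CPM.

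Cd44, the main cell surface receptor for hyaluronan, was highest in macrophages among the 6 classes, at 259.6 CPM (239.8 to 280.5) at P1 and 236 CPM (216 to 257) at P7. The log2 ratio there was 0.14 (-0.03 to 0.31), which spans no difference. Valve-type cells came next, at 50.8 CPM (43.4 to 59.0) and 61.4 CPM (50.6 to 73.7), again with an interval that spans no difference (-0.62 to 0.08). In endothelium, fibroblasts and smooth muscle the ages differed, and not in the same direction. Endothelium stood at 11.7 CPM (10.2 to 13.3) at P1 and 28.4 CPM (26.5 to 30.4) at P7, for a log2 ratio of -1.28 (-1.50 to -1.07). Fibroblasts stood at 7.85 CPM (6.57 to 9.31) and 16.1 CPM (14.8 to 17.5), for a log2 ratio of -1.03 (-1.32 to -0.76). Smooth muscle stood at 20.1 CPM (41 UMIs in 22 of 167 cells) at P1 and 2.94 CPM (13 UMIs in 11 of 411 cells) at P7, for a log2 ratio of 2.73 (1.84 to 3.80). Epicardium stood at 23.2 CPM (15 UMIs) and 39.7 CPM (12 UMIs), with an interval that spans no difference (-1.97 to 0.45). Over all cells Cd44 stood at 31.7 and 28.4 CPM, while endothelium, fibroblasts and smooth muscle were apart in both directions. With cells of several gates kept, the ratio was 1.57 in smooth muscle and -0.64 in fibroblasts, the latter under 2-fold. Cardiomyocyte markers in smooth muscle stood at 587 and 120 CPM and pericyte markers at 2784 and 4447 CPM, and their part in the difference was not tested.

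The endothelial difference in Cd44 was present in capillary cells but was not confined to them. Car4 cells stood at 7.86 CPM at P1 and 26.4 CPM at P7, for a log2 ratio of -1.74 (-2.14 to -1.38), with 71 and 357 UMIs. Gja5 cells were higher than Car4 cells at both ages, at 47.1 and 55.9 CPM, with a log2 ratio of -0.24 (-0.84 to 0.31). Npr3 cells stood at 11.4 and 13.3 CPM. Prox1 cells stood at 7.44 and 21.9 CPM (7 and 20 UMIs), for a log2 ratio of -1.49 (-3.04 to -0.26). Endothelial cells with a UMI of none of Npr3, Prox1, Car4 and Gja5 stood at 14.2 and 29.6 CPM (86 and 374 UMIs). Their log2 ratio was -1.05 (-1.41 to -0.72). Leaving out the Npr3 cells left the endothelial log2 ratio at -1.30 (-1.55 to -1.07). Col26a1 fibroblasts stood at 4.73 and 11.9 CPM and Pi16 fibroblasts at 10.7 and 19.9 CPM, both higher at P7, while the unmarked fibroblasts stood at 17.4 and 11.2 CPM, with an interval that spans no difference (-0.20 to 1.52). For Cd44 the lymphocyte gate gives no background, because leucocytes express it: cells of that gate with S100a8 and S100a9 stood at 347 CPM at P1 and the remaining 23 cells at 41.0 CPM.

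**Figure D4:**
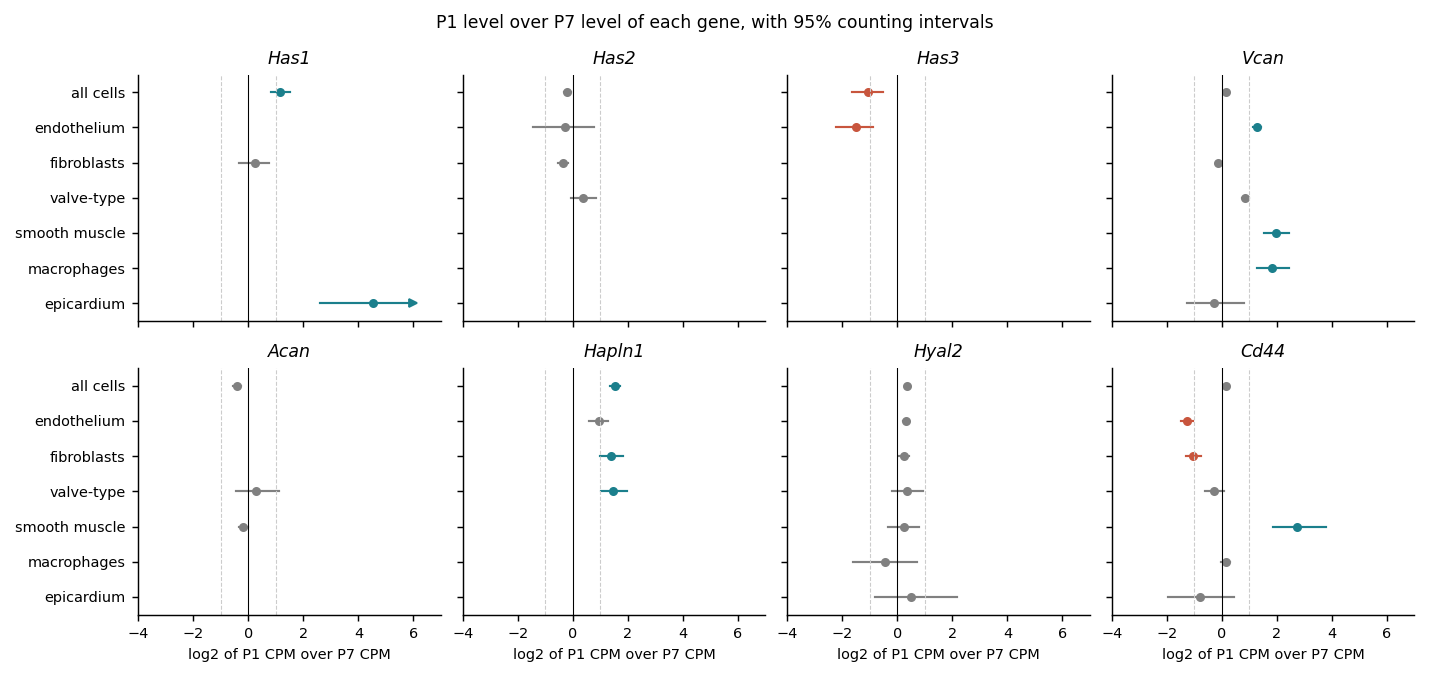
Log2 of the P1 CPM over the P7 CPM (x axis) of each gene in all cells and in each class with at least 20 UMIs, with 95% counting intervals; dashed lines mark 2-fold, and coloured points are at least 2-fold apart with an interval clear of 0. Cd44 lies on both sides of 0, at 2.73 in smooth muscle and -1.28 in endothelium, and the Has1 interval in epicardium runs past the axis to 10.44.

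By class, the counts of genes at least 2-fold apart were small and are read against all genes. In endothelium 3 of the 6 genes with enough UMIs were 2-fold apart (Vcan higher at P1, Has3 and Cd44 higher at P7), against 8.85% of all genes tested. In fibroblasts 2 of 6 were (Hapln1 and Cd44), against 9.94%, and in valve-type cells 1 of 6 (Hapln1), against 5.78%. In smooth muscle 2 of 4 were (Vcan and Cd44, both higher at P1), against 6.63%. In macrophages 1 of 3 was (Vcan), against 6.75%, and in epicardium 1 of 4 (Has1), against 8.51%. These members are few, so the shares are given as counts and nothing is drawn from them about the genes as a group.

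Cells with a Has2 or a Hapln1 UMI mostly held a Vcan UMI as well. Of the 205 fibroblasts with a Has2 UMI at P1, 199 also had a Vcan UMI, and at P7 500 of 505 did. Of the 102 valve-type cells with a Hapln1 UMI at P1, 100 had a Vcan UMI, and at P7 26 of 28 did. Since Vcan was found in 90.9% and 96.3% of fibroblasts and in 94.6% and 89.4% of valve-type cells, most cells of these classes held Vcan whether or not they held the other gene. Has2 and Hapln1 were also both found in these classes. Of the fibroblasts with a Hapln1 UMI, 15 of 51 at P1 and 7 of 74 at P7 had a Has2 UMI, beside 205 of 977 and 505 of 1993 fibroblasts in all. Over the 12 class levels (6 classes in 2 libraries, log2 of CPM plus 1), the Pearson correlation was 0.88 between Has2 and Vcan, 0.77 between the neighbours Vcan and Hapln1, 0.75 between Has3 and Hyal2 and 0.65 between Has2 and Hapln1. These values are descriptions over points that share libraries and, in pairs, cell classes.

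Among the 12440 genes searched, those with the pattern most like each member over the same 12 levels were named by that correlation. They were Sugct, Ap4e1 and Dhrs4 for Has1 (0.97 to 0.94), Nkd2, 9030612E09Rik and Plxna3 for Has2 (0.97 to 0.96), Cxcl9, Magix and Halr1 for Has3 (0.96 for each), and Col9a2, Tmem167 and Vcam1 for Vcan (0.97 to 0.95). Acan was most like Cnn1, the calponin gene of smooth muscle (0.99), followed by Cacna1c and Ctnna3. Hapln1 was most like Fam3c, Ahsg and Pde4d (0.94 to 0.92). Hyal2 was most like Cavin2, Jcad and Yes1 (0.96 for each), of which Cavin2 encodes a caveolar protein abundant in endothelium. Cd44 was most like Tlr2, an innate immune receptor (0.94), followed by Ftl1-ps1 and Camkk2.

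A list of 44 further genes of hyaluronan supply, breakdown, sensing, binding and lectican cleavage was examined beside the 8. Of these, 37 had at least 20 UMIs over both libraries, and 5 were at least 2-fold higher at P1 and 6 at least 2-fold higher at P7, against 8.54% and 3.83% of all genes tested. Their median log2 ratio was -0.07, against 0.0041 for all genes tested. Among the 8 genes of precursor supply, Uap1 and Gfpt2 were higher at P7. Uap1, which makes UDP-N-acetylglucosamine, stood at 41.6 CPM at P1 and 110.1 CPM at P7, for a log2 ratio of -1.40 (-1.47 to -1.34). Gfpt2, an entry enzyme of the hexosamine pathway, stood at 23.2 and 59.7 CPM, for a log2 ratio of -1.36 (-1.45 to -1.28). In fibroblasts Uap1 stood at 65.4 and 183 CPM, and Gfpt2 at 55.9 and 117 CPM.

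Breakdown genes mostly stayed within 2-fold, with 1 of the 7 tested higher at P1 (8.54% of all genes were). That gene was Tmem2 (also called Cemip2), a cell surface hyaluronidase, at 74.4 CPM at P1 and 29.9 CPM at P7, for a log2 ratio of 1.32 (1.25 to 1.38). In endothelium Tmem2 stood at 143 CPM at P1 and 54.6 CPM at P7, beside the smaller difference in Hyal2. Of the 6 receptor genes tested, Lyve1, the receptor of lymphatic endothelium and of some resident macrophages, was higher at P1 over all cells, at 30.1 and 8.72 CPM, for a log2 ratio of 1.79 (1.67 to 1.91). Within the classes Lyve1 had opposite signs, with 66.8 CPM at P1 and 11.2 CPM at P7 in endothelium and 99.5 and 204 CPM in macrophages.

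Among the 9 binding genes tested, 2 were higher at P1 and 1 was higher at P7, against 8.54% and 3.83% of all genes tested. Itih3, a heavy chain of inter-alpha-trypsin inhibitor that can be bound to hyaluronan, stood at 2.25 CPM at P1 and 0.257 CPM at P7, for a log2 ratio of 3.11 (2.51 to 3.81). Ptx3, a pentraxin of hyaluronan-rich matrix, stood at 40.0 and 14.4 CPM over all cells, for a log2 ratio of 1.48 (1.38 to 1.57), and at 322 and 287 CPM in valve-type cells. Tnfaip6, which encodes TSG-6, the enzyme that transfers heavy chains to hyaluronan, stood at 15.1 and 36.7 CPM, for a log2 ratio of -1.28 (-1.39 to -1.17). Tnfaip6 stood at 30.2 and 67.4 CPM in fibroblasts and at 49.3 and 47.9 CPM in valve-type cells, where the ratio of 0.04 (-0.34 to 0.43) spans no difference. Itih5 stood at 1095 and 1346 CPM in valve-type cells, within 2-fold. Bcan, which the naming rule also takes, had a log2 ratio of -1.24 with an interval that spans no difference (-3.39 to 0.25).

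Of the 7 ADAMTS proteases that cut versican or aggrecan, 1 was higher at P1 and 3 were higher at P7, against the same 8.54% and 3.83% of all genes. Adamts20 stood at 3.66 CPM at P1 and 1.57 CPM at P7, for a log2 ratio of 1.22 (0.92 to 1.53). Adamts8 stood at 5.96 and 14.1 CPM, for a log2 ratio of -1.24 (-1.41 to -1.07). The other 2, named after their values were seen, were Adamts15 (-1.22) and Adamts5 (-1.02). In fibroblasts, where Vcan lay within 2-fold of itself between the ages, Adamts5 stood at 261 CPM at P1 and 469 CPM at P7.

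**Figure D5:**
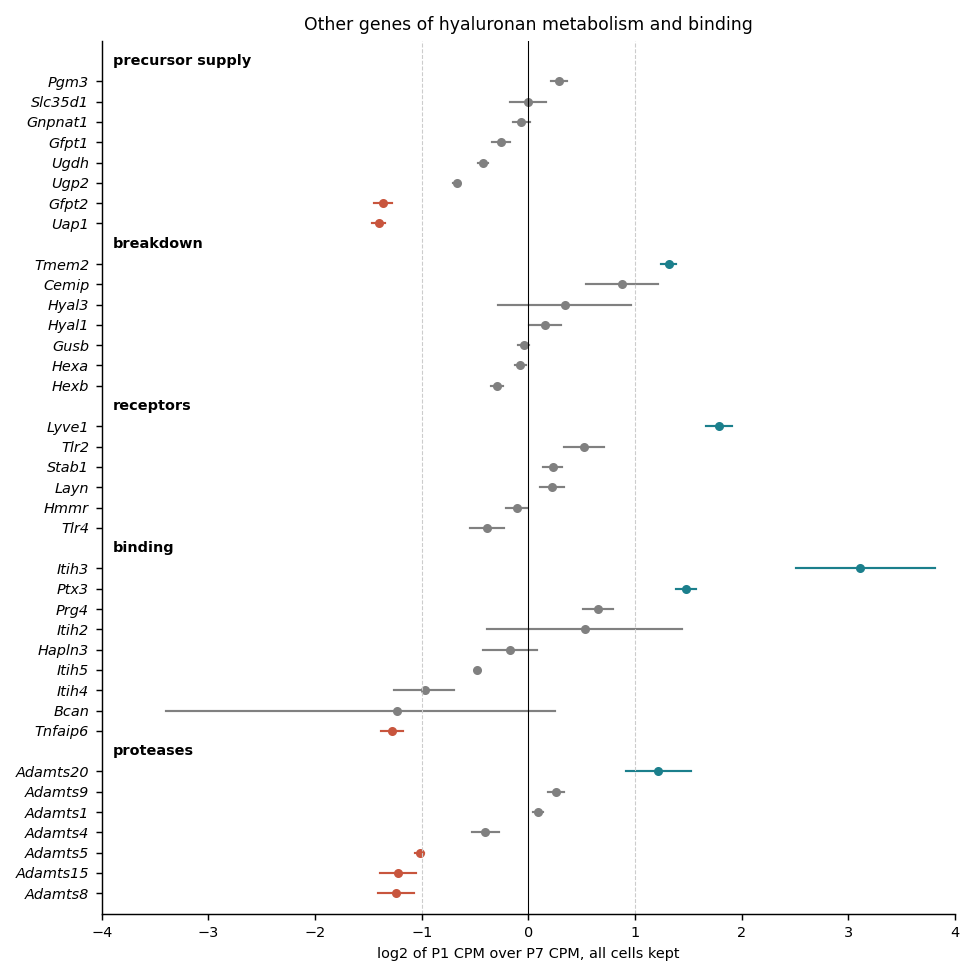
Log2 of the P1 CPM over the P7 CPM (x axis) in all kept cells for the 37 tested genes of the wider list, grouped by role, with 95% counting intervals; coloured points are at least 2-fold apart with an interval clear of 0. Precursor genes lie at or below 0.29, with Uap1 and Gfpt2 at -1.40 and -1.36, while Lyve1, Itih3, Ptx3, Tmem2 and Adamts20 lie to the right of 1.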

How the data were processed

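Per the study's methods and the submitters' processing notes, the authors aligned the reads to mm10/GRCm38 with Cell Ranger 3.1.0 and deposited 1 table of UMI counts per library (31053 genes, 7836 and 9077 barcodes). From these counts, barcodes with 200 to 8000 genes and at most 20% mitochondrial UMIs were kept; the study's own mitochondrial limit is not given in the sources used here. A gate was at least 2 UMIs of the marker, or at least 1 each of Fmod and Scx. Valve-type and epicardium took precedence over fibroblasts, and other cells passing several gates were left out; no doublet caller was run. UMIs were summed per class and given as CPM with exact Poisson intervals; log2 ratios had 0.5 counts added and exact binomial intervals (scipy 1.17.1, numpy 2.4.6). Shares have Clopper-Pearson intervals and were recomputed on cells thinned to 2000 UMIs. A count of 0 was given the limit that 3 counts allow. The ratio script was tested on simulated counts. The members and lists were chosen with earlier results of these data known. The genes named were the 8 members, the 5 largest ratios each way of the wider list, and the 3 genes most like each member among those with at least 200 UMIs.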

Additional observations from a re-analysis of the deposited data

Results flagged for a closer look

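Of the 8 genes, 4 had opposite signs between the gated classes or between the finer gates of endothelium or fibroblasts, with counting intervals clear of 0. The share of all genes that would do so was not computed, so nothing is drawn from this count about the 8 genes. With 1 library per age, none of these differences between cells was tested. The log2 ratio of P1 over P7 for Cd44 was 2.73 in smooth muscle and -1.28 in endothelium. For Has2 it was 1.58 in fibroblasts with none of Pi16, Gdf10 and Col26a1 and -0.57 in Pi16 fibroblasts. For Vcan it was 1.98 in smooth muscle and -0.15 in fibroblasts, but with cells of several gates kept the latter was 0.055 (0.015 to 0.095), on the other side of 0. Among the finer gates of fibroblasts, Vcan was at 0.73 in the unmarked cells and -0.61 in Gdf10 cells. Within endothelium Vcan was at -0.35 in cells with an Npr3 UMI and 0.97 in cells without (without Prox1 cells the former was -0.22, with an interval of -0.45 to 0.02 that spans no difference), and at 3.86 in Gja5 cells and -0.62 in Prox1 cells. In Gja5 cells 1 cell held 49 of the 159 Vcan UMIs at P1. In Prox1 cells 1 cell held 34 of the 96 Vcan UMIs at P7, so the sign there leans on that cell. For Hapln1 the ratio was -1.78 in endothelial cells with an Npr3 UMI, 1.48 in those without and 2.98 in Car4 cells, where the Npr3 cells with a Hapln1 UMI numbered 10 at P1 and 7 at P7, and 1 cell held 21 of the 39 UMIs of Car4 cells at P1. In fibroblasts Hapln1 was at 2.50 in the unmarked cells and -1.03 in Gdf10 cells. Valve-type cells missed by their gate may lie among the unmarked fibroblasts, and their part was not tested.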

How the results depend on the processing

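Across 32 log2 ratios of P1 over P7, 279 recomputed values included 9 with a changed sign, none of them for the 15 ratios called 2-fold apart, of whose 127 values 14 fell under 2-fold. The count of 3 genes apart over all cells was 3 with no minimum of UMIs, with at least 100 UMIs and at 1.5-fold. Every member had more than 100 UMIs, so the settings of the minimum could not change this count. It was not recomputed on thinned cells or without lung gene cells, where Has3 and Has1, respectively, fell under 2-fold. Thinning to 2000 UMIs gave, over all cells, 0.083 for Has2, -0.21 for Has3, 0.36 for Vcan, -0.10 for Acan, 2.10 for Hapln1, 0.16 for Hyal2 and 0.54 for Cd44, and in leading classes 1.47 for Has1 in epicardium, -0.10 for Vcan in fibroblasts, 0.21 for Acan in smooth muscle and -0.051 for Cd44 in macrophages. The mean of per-cell CPM gave 0.17 for Has2, 0.52 for Vcan, -0.17 for Acan, 1.88 for Hapln1, 0.12 for Hyal2 and 0.40 for Cd44 over all cells, -0.10 for Vcan in fibroblasts and 0.015 for Acan in smooth muscle. Without cells with a lung gene UMI (987 at P1 and 257 at P7) Has1 stood at 0.63 and Acan at -0.22 over all cells. Without mitochondrial, haemoglobin and ribosomal protein genes in the total, Vcan was at 0.18 over all cells and -0.10 in fibroblasts. Without cells over 3 times the median UMIs, Hapln1 was at 1.73. A gate of 3 UMIs gave -0.21 for Vcan in fibroblasts, and keeping cells of several gates gave 0.055 there and 0.34 for Cd44 in macrophages. Settings chosen after seeing the data gave 2.48 for Vcan in Gja5 endothelium without Npr3 cells, against 3.86, and -1.58 for Hapln1 in Npr3 endothelium without lung gene cells and -1.67 without Prox1 cells. The causes were not tested. No replicate could be left out, and no paired analysis was possible because each age had 1 library.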
